A study of Rattus norvegicus with 28 samples.

Results

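The granins and the proteins that process prohormones are described here by the messenger RNA of 10 genes, chosen by name, of the 39538 genes measured in rat striatum. These are the granin genes Vgf, Scg2, Scg3, Chga and Chgb, the prohormone convertase genes Pcsk1 and Pcsk2, the genes of a convertase chaperone (Scg5) and a convertase inhibitor (Pcsk1n), and the carboxypeptidase gene Cpe. RNA was sequenced from the striatum of male rats, 28 libraries in all. The rats were either wild type (wt) or transgenic (TG), the genotype that the labels write as deltaETorA, which models the inherited movement disorder DYT-TOR1A dystonia. Rats of each genotype were naive or had the right sciatic nerve crushed for 30 seconds, and all libraries carry the label 12 weeks post injury. The naive groups had 8 libraries each and the crush groups 6 each. The promoter of the transgene, the line and the age of the rats are not given in the sources used here.

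Granins are acidic proteins that are packed with neuropeptides into dense core vesicles, and several of them are themselves cut into active peptides. The convertases encoded by Pcsk1 and Pcsk2 cut prohormones after pairs of basic residues, and carboxypeptidase E then trims those residues from the ends. Scg5 encodes a chaperone of the Pcsk2 product, and Pcsk1n encodes proSAAS, an inhibitor of the Pcsk1 product. In the striatum, spiny projection neurons make neuropeptides such as enkephalin, and Vgf is known as a gene induced by neurotrophins and by neuronal activity. Cpe and Scg3 are known to be made by astrocytes as well as by neurons.

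The promoters of Vgf and Scg2 are shown because a cAMP response element, the 8 letters TGACGTCA, lies in both. Each line gives the 150 bases before the RefSeq start, written 5′ to 3′ on the gene's strand, with TGACGTCA and, in Vgf, the E-box CACGTG in capitals.
Vgf, GRCr8 chr12:25277021-25277170, minus strand: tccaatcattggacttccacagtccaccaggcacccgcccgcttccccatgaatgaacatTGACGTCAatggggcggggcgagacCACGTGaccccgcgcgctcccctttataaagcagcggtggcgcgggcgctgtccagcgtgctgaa
Scg2, GRCr8 chr9:88256867-88257016, minus strand: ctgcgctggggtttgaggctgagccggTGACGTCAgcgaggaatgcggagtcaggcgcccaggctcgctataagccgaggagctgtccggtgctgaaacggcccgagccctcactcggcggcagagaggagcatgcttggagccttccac
The element began 90 bases before the start in Vgf and 123 bases before it in Scg2, and the E-box of Vgf began 65 bases before the start. RefSeq promoters of 250 bases before to 50 after the start were matched for 8 of the 10 genes, all but Chga and Pcsk1. Searched on both strands of 33469 such promoters, TGACGTCA was found in 1.83% and CACGTG in 6.42%. The shorter core TGACG, which TGACGTCA contains, was found in 21.2% of all promoters and in those of Vgf, Scg2, Scg3, Pcsk2, Scg5 and Cpe. The AP-1 motif TGANTCA, found in 7.33% of all promoters, was in none of the 8. A match is a description of these letters only.

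The libraries held 29151455 to 38407359 reads assigned to genes, and levels are given as RPM, reads per 1000000 assigned reads. RPM is not corrected for length, so levels are compared between libraries and not between genes. The human TOR1A transcript matched the genotype label in every library, at 102 RPM or more in TG and 0.972 RPM or less in wt libraries. The labelled tissue was checked by 17 markers of spiny projection neurons, whose summed level was 7609 to 15689 RPM. TG crush replicate 223 stood apart. It had the lowest level of all 28 libraries for 7 of the 10 genes (Vgf, Scg2, Chga, Chgb, Pcsk1, Pcsk2 and Scg5) and the highest level of its group for Cpe. It also had the lowest spiny neuron level of its group (mean log2 level 8.31) and the highest level of the pituitary gene Gh1 in the series (41.9 RPM). Gh1 was not particular to that library, with 32.5 RPM in wt crush replicate 205. Its medians were 0.06 RPM in wt naive, 8.34 in wt crush, 0.996 in TG naive and 2.21 RPM in TG crush libraries. Of 5 pituitary markers tested, 2 were called higher and 0 lower with crush averaged over genotypes, against 11.4% of all genes called. Many results are given with and without TG crush replicate 223, but not every correlation is. Nothing in the labels says more about separate animals than a number for each library, so the p-values rest on the spread among libraries, which may be technical.

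Of the 10 genes, Vgf was the one that passed the test, and it did so in a single comparison: its RNA was lower in TG crush than in TG naive striatum. The convertase, chaperone, inhibitor and carboxypeptidase genes and the other granins passed in none of the 7 contrasts. All 10 genes were above the minimum level and were tested among 18222 genes in 1 limma fit of log2(RPM + 0.5), with Benjamini-Hochberg adjusted p under 0.05 as the threshold. Between TG crush and TG naive libraries 1 of 10 was called, lower, against 3.08% of all genes called and 2% called lower, and 1 of 10 had an unadjusted p under 0.05, against 19.3%. With median-of-ratios rescaling the split of all genes called in this comparison went from 197 higher and 365 lower to 273 higher and 306 lower, and Vgf was lower under both. Between wt crush and wt naive libraries 0 of 10 were called by limma, against 0.159% of all genes, and 4 had an unadjusted p under 0.05, against 20.8%. That split of all genes went from 7 higher and 22 lower to 12 higher and 19 lower with the rescaling.

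In naive rats 0 of 10 were called between genotypes by limma, against 0.0329% of all genes, and 0 had an unadjusted p under 0.05, against 4.98%. In crush rats 0 were called, against 0.00549%, and 1 of 10, Vgf, had an unadjusted p under 0.05, against 8.06%. For the genotype difference averaged over both arms 0 were called, against 0.0384%, and 0 had an unadjusted p under 0.05, against 5.09%. For the crush difference averaged over genotypes 0 were called, against 11.4%, and 3 (Pcsk1n, Vgf and Cpe) had an unadjusted p under 0.05, against 28.5%. For the interaction, which asks whether the crush difference itself differed between genotypes, 0 were called, against 0.00549%, and 1, Vgf, had an unadjusted p under 0.05, against 7.49%. limma-voom on whole reads gave the same counts of called genes, 1 for TG crush against TG naive and 0 for the other 6.

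**Figure D1:**
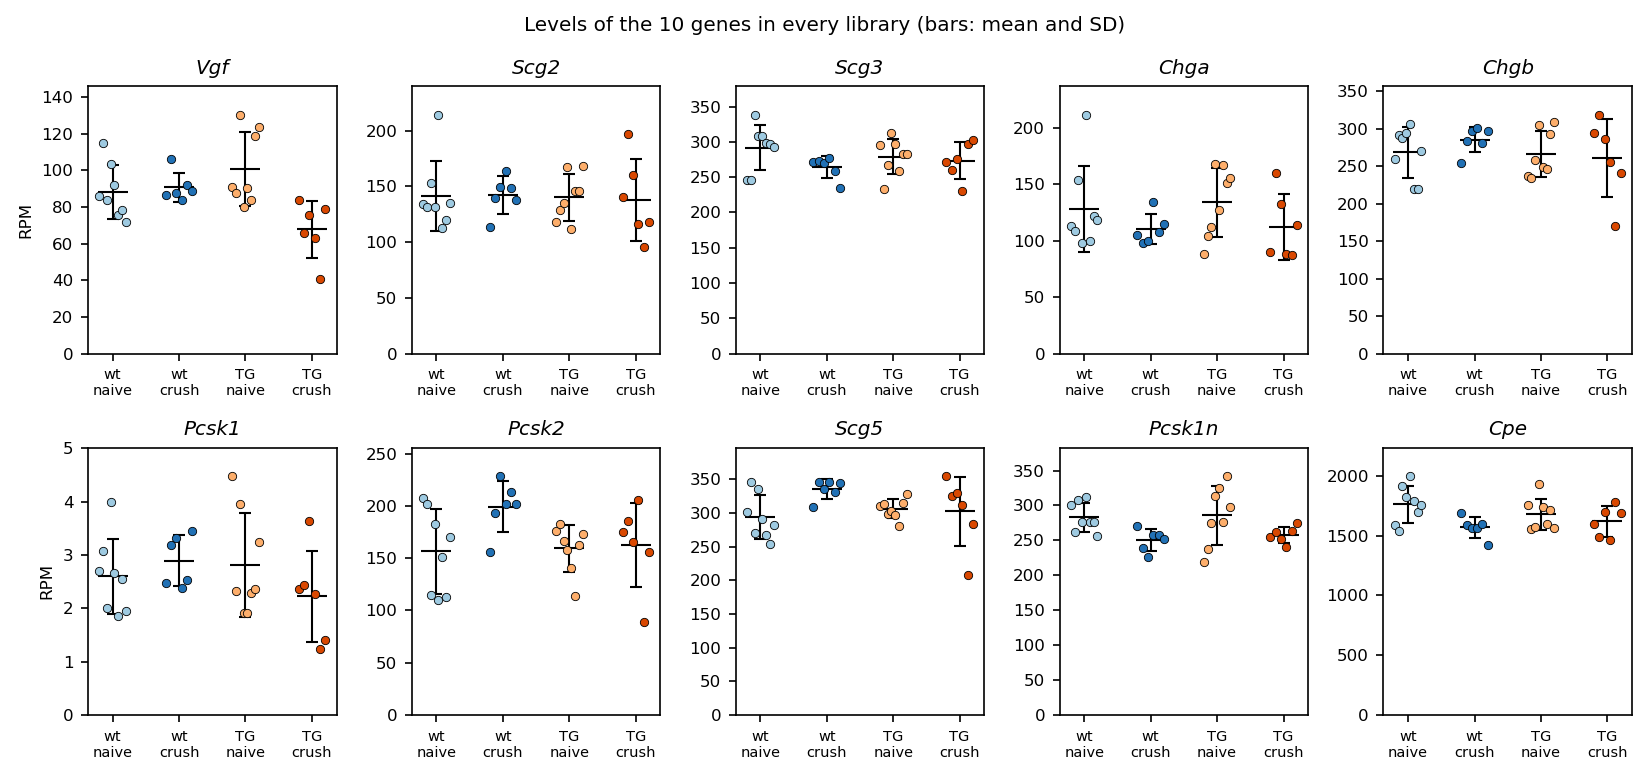
Level of each of the 10 genes in every library, in RPM on a linear axis with a scale of its own for each gene, by genotype and injury. Points are libraries and bars are group means with SD. The Vgf panel shows 6 TG crush libraries between 40.4 and 83.7 RPM, and TG crush replicate 223 is the lowest point in 7 of the panels.

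Vgf (chromosome 12, 22677302 to 22680630, minus strand, Rnor_6.0) encodes a granin-like precursor that is cut into several secreted peptides. Its lowest, median and highest levels were 72.0, 84.8 and 115 RPM in wt naive and 83.7, 88.2 and 106 RPM in wt crush libraries. They were 80.0, 90.6 and 130.3 RPM in TG naive libraries. In the TG crush libraries the levels were 83.7 (replicate 214), 78.8 (226), 75.7 (220), 65.7 (219), 62.9 (222) and 40.4 RPM (223). Thus 5 of 6 TG crush libraries lay below every TG naive library, and replicate 214 lay within the TG naive range. The TG naive mean was 100.6 ± 20.1 RPM (SD, n = 8), and the TG crush mean was 67.9 ± 15.6 RPM (SD, n = 6).

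On the log2 scale, Vgf fell by 0.58 from TG naive to TG crush (SE 0.13, 95% interval -0.85 to -0.30, limma adjusted p = 0.0159). Without TG crush replicate 223 it fell by 0.44 (adjusted p = 0.0257). With each library left out in turn the adjusted p ranged from 0.0106 to 0.0465. The call was lost when the TG groups were fitted alone (adjusted p = 0.0873), with the same log2 change and an SE of 0.15 in place of 0.13. In wt rats the means were 88.2 ± 14.7 RPM (SD, n = 8) in naive and 90.7 ± 8.03 RPM (SD, n = 6) in crush libraries, a log2 change of 0.05 (SE 0.13, adjusted p = 0.843). The crush difference of TG rats minus that of wt rats was -0.63 (SE 0.19, adjusted p = 0.437), so a difference between the genotypes in their response was not shown across all genes. Leaving out TG crush replicate 223 made that value -0.49.

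In crush rats every TG library was below every wt library for Vgf, by a margin so small that the highest TG and the lowest wt library both round to 83.7 RPM. Groups that do not overlap, with TG lower, were seen for 1 of 10 genes here and for 0.165% of all genes tested. The log2 change from wt crush to TG crush was -0.45 (SE 0.14, unadjusted p = 0.00394, adjusted p = 0.58), and -0.31 without TG crush replicate 223. In naive rats the change went the other way, 0.18 (SE 0.12, adjusted p = 0.999), and 3 of 8 TG naive libraries were above all wt naive libraries. The TG naive libraries fell into a higher set of 3 (119 to 130.3 RPM) and a lower set of 5 (80.0 to 90.9 RPM). Spiny neuron markers had a mean log2 level of 8.92 ± 0.27 in the TG naive group (SD, n = 8) and of 8.90 ± 0.35 after crush (SD, n = 6). With that level as a covariate Vgf fell by 0.57 in TG rats (adjusted p = 0.00345), and without 5 libraries above 20 RPM of the cortical gene Slc17a7 it fell by 0.66 (adjusted p = 0.0297). Of 9 microglial markers 8 had a negative log2 change with crush in TG rats, with a median of -0.26 beside -0.01 over all genes. Of these 9 markers 1 passed the test, against 3.08% of all genes. Their summed level was 371 to 519 RPM in TG naive and 342 to 517 RPM in TG crush libraries, and no marker was at 0 in a whole group. Within groups, over 28 libraries, Vgf and the microglial level had an r of -0.50 (permutation p = 0.0215, adjusted p = 0.0614) and a rho of -0.42 (permutation p = 0.0489, adjusted p = 0.136), and r was -0.34 without TG crush replicate 223. This was not particular to microglia. With the astrocyte and endothelial levels r was -0.52 and -0.47 (permutation adjusted p = 0.0609 and 0.0905), and -0.32 and -0.23 without that library. Of 9 astrocyte markers 7 had a negative log2 change with crush in TG rats, with a median of -0.19, and 0 passed, against 3.08% of all genes.

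Scg2 (chromosome 9, 85237460 to 85243024, Rnor_6.0) encodes secretogranin II, the precursor of secretoneurin. Its means were 141 ± 31.7 RPM (SD, n = 8) in wt naive, 142 ± 16.9 (SD, n = 6) in wt crush, 140.2 ± 20.9 (SD, n = 8) in TG naive and 138 ± 36.6 RPM (SD, n = 6) in TG crush libraries. The 4 means lay closer together than the libraries of any group. In TG crush libraries alone the level ran from 95.8 RPM in replicate 223 to 197 RPM in replicate 219. The log2 change from TG naive to TG crush was -0.05 (95% interval -0.33 to 0.23). It was -0.58 for Vgf, whose promoter holds the same element, and the difference between the 2 genes was not tested. For Scg2 without replicate 223 it was 0.05.

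Chga and Chgb encode chromogranins A and B, the classical granins of endocrine and neuronal vesicles. Chga (chromosome 6, 126434226 to 126445569, Rnor_6.0) averaged 128 ± 38.0 RPM (SD, n = 8) in wt naive, 110.0 ± 13.3 (SD, n = 6) in wt crush, 134 ± 30.6 (SD, n = 8) in TG naive and 112 ± 29.4 RPM (SD, n = 6) in TG crush libraries. The crush means were lower than the naive means in both genotypes, by less than the SD of the naive groups. The log2 changes were -0.18 in wt (adjusted p = 0.519) and -0.26 in TG rats (adjusted p = 0.40). That of wt rats was -0.07 without wt naive replicate 199 and 0.06 with spiny neuron level as a covariate, and that of TG rats was -0.20 without TG crush replicate 223. Chgb (chromosome 3, 125428050 to 125441601, Rnor_6.0) averaged 269 ± 33.9 RPM (SD, n = 8) in wt naive, 286 ± 17.3 (SD, n = 6) in wt crush, 266 ± 30.7 (SD, n = 8) in TG naive and 261 ± 52.7 RPM (SD, n = 6) in TG crush libraries. Its log2 change between TG and wt crush libraries was -0.16 (adjusted p = 0.716), and -0.04 without TG crush replicate 223, whose level was 169.8 RPM against 241 to 319 RPM in the other 5.

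Scg3 (chromosome 8, 82582352 to 82641536, Rnor_6.0) encodes secretogranin III, which binds chromogranin A and takes part in sorting cargo into vesicles. Its wt naive mean was 292 ± 31.6 RPM (SD, n = 8), and its wt crush mean was 264 ± 15.8 RPM (SD, n = 6), a log2 change of -0.14 (SE 0.07, adjusted p = 0.262). In TG rats the means were 279 ± 24.9 RPM (SD, n = 8) in naive and 273 ± 26.2 RPM (SD, n = 6) in crush libraries. Its groups overlapped in all 4 comparisons. The 5 granins together had a median log2 change of -0.05 from TG naive to TG crush, beside -0.01 over all genes tested, and 0.02 in wt rats, beside -0.03.

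Pcsk2 (chromosome 3, 137618891 to 137923385, Rnor_6.0) encodes the convertase that makes enkephalins and many other small peptides. Its lowest, median and highest levels were 110.0, 161 and 208 RPM in wt naive and 156, 202 and 228 RPM in wt crush libraries. In TG naive libraries they were 114, 165 and 183 RPM, and in TG crush libraries 89.1, 170.5 and 206 RPM. The wt naive libraries were spread widely, and 2 of 6 wt crush libraries were above all of them. The log2 change with crush in wt rats was 0.38 (SE 0.16, adjusted p = 0.19), and in TG rats it was 0.00 (SE 0.16), or 0.16 without TG crush replicate 223 (adjusted p = 0.503). For wt naive libraries the spiny neuron marker level was 8.79 ± 0.41 (SD, n = 8), and after crush it was 9.18 ± 0.08 (SD, n = 6). With it as a covariate the change of Pcsk2 in wt rats was 0.03 (SE 0.09). Between TG and wt crush libraries the log2 change was -0.33 (SE 0.17, adjusted p = 0.631), and -0.16 without TG crush replicate 223. In these bulk samples, fewer cells of a type and less RNA per cell cannot be told apart.

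Pcsk1 (chromosome 2, 91450162 to 91497091, Rnor_6.0), the other convertase gene, rested on 40 to 172 reads per library. Its lowest, median and highest levels were 1.86, 2.61 and 3.99 RPM in wt naive and 2.38, 2.86 and 3.45 RPM in wt crush libraries. In TG naive libraries they were 1.92, 2.35 and 4.48 RPM, and in TG crush libraries 1.24, 2.31 and 3.63 RPM. In crush rats 4 of 6 TG libraries were below all wt libraries and 1 was above them. The log2 change there was -0.36 (SE 0.19, adjusted p = 0.632), and -0.25 without TG crush replicate 223. From TG naive to TG crush it was -0.29 (SE 0.18, adjusted p = 0.401), and -0.17 without that library. Neither change passed the test.

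Scg5 (chromosome 3, 105235065 to 105279475, Rnor_6.0) encodes the chaperone that the Pcsk2 convertase needs to become active. Its lowest, median and highest levels were 254, 286 and 347 RPM in wt naive and 309, 340.3 and 346 RPM in wt crush libraries. In TG naive libraries they were 281, 307 and 328 RPM, and in TG crush libraries 208, 319 and 355 RPM. All 6 wt crush libraries were above the wt naive median, yet none was above the highest wt naive library. The log2 change with crush was 0.20 in wt (SE 0.08, adjusted p = 0.184) and -0.04 in TG rats (SE 0.08, adjusted p = 0.861). The difference between the genotypes in that change was -0.24 (SE 0.12, unadjusted p = 0.0527, adjusted p = 0.658). Leaving out TG crush replicate 223 made that difference -0.13 (limma adjusted p = 0.882). With spiny neuron level as a covariate the change in wt rats was 0.06 (SE 0.07), and without TG crush replicate 223 the change in TG rats was 0.07.

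Pcsk1n (chromosome X, 15324263 to 15327705, Rnor_6.0), which encodes the convertase inhibitor proSAAS, was lower after crush in both genotypes without passing the test. Its lowest, median and highest levels were 256, 277 and 311 RPM in wt naive and 226, 255 and 270.3 RPM in wt crush libraries. In TG naive libraries they were 219.5, 287 and 342 RPM, and in TG crush libraries 240.6, 258 and 274 RPM. In wt rats 3 of 6 crush libraries were below all naive libraries, while in TG rats the crush libraries lay within the wider naive range. The log2 change was -0.18 in wt (SE 0.07, adjusted p = 0.191) and -0.14 in TG rats (SE 0.07, adjusted p = 0.327). Averaged over genotypes it was -0.16 (SE 0.05, adjusted p = 0.0512), just short of the threshold. With each library left out in turn the adjusted p ranged from 0.0128 (without TG naive replicate 187, the lowest of its group) to 0.0991 (without TG crush replicate 222), and it passed for 7 of 28. With spiny neuron level as a covariate the change was -0.13 (adjusted p = 0.127), as it was without the libraries above 20 RPM of Slc17a7 (adjusted p = 0.207). Of the 9 microglial markers 8 had a negative log2 change with crush in wt rats, with a median of -0.27 beside -0.03 over all genes. Of these 9 markers 0 passed, against 0.159% of all genes, and 7 had an unadjusted p under 0.05, against 20.8%. Their summed level was 345 to 521 RPM in wt naive and 360 to 423 RPM in wt crush libraries. Within groups Pcsk1n followed the microglial level (r = 0.57, rho = 0.58, permutation p = 0.00082 and 0.00193, adjusted p = 0.00631 and 0.0129), with an r of 0.60 without the 2 farthest libraries and 0.61 without TG crush replicate 223. This too was not particular to microglia. With the astrocyte level r was 0.43 and rho 0.51 (permutation adjusted p = 0.03 and 0.0349), and r was 0.47 without that library. Of 9 astrocyte markers 9 had a negative log2 change with crush in wt rats, with a median of -0.19. Of these, 0 passed and 5 had an unadjusted p under 0.05, against 20.8% of all genes.

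Cpe (chromosome 16, 26906716 to 27014811, Rnor_6.0) encodes carboxypeptidase E. Its lowest, median and highest levels were 1536, 1772 and 1997 RPM in wt naive and 1422, 1576 and 1692 RPM in wt crush libraries. In TG naive libraries they were 1554, 1655 and 1927 RPM, and in TG crush libraries 1464, 1639 and 1784 RPM. The wt crush libraries stood low, with 6 of 6 below the wt naive median and 1 below the whole naive range. The log2 change with crush was -0.16 in wt (SE 0.07, adjusted p = 0.178) and -0.05 in TG rats (SE 0.07, adjusted p = 0.727). The astrocyte markers, 9 genes, had a mean log2 level of 8.69 ± 0.14 in the wt naive group (SD, n = 8) and of 8.48 ± 0.04 in the wt crush group (SD, n = 6). Their summed level was 5412 to 7715 RPM and 5284 to 5774 RPM in these groups, no marker was at 0 in a whole group, and their part in the Cpe difference was not tested.

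**Figure D2:**
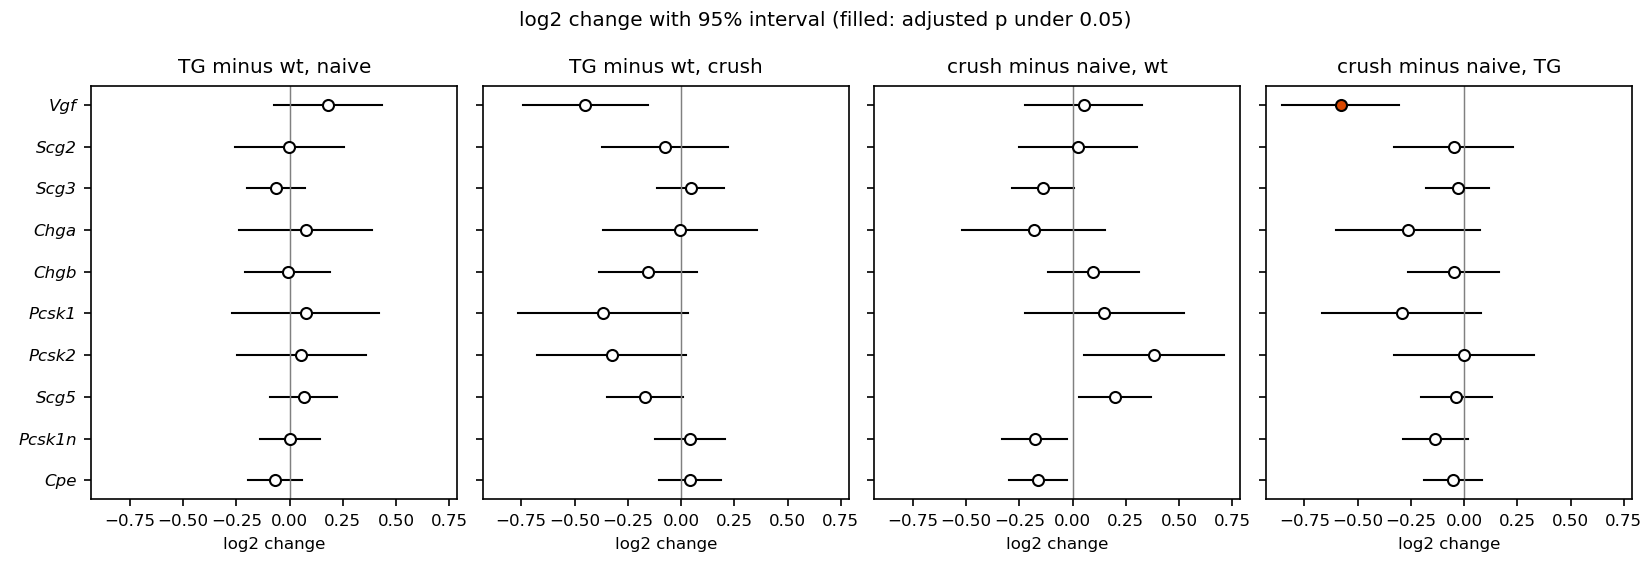
Log2 change of each gene with its 95% interval in the 4 simple comparisons, from the fit of all 28 libraries. The interval of Vgf in TG crush minus TG naive runs from -0.85 to -0.30, and that change is the one that passed the test. Pcsk2 and Scg5 stand above 0 and Pcsk1n and Cpe below 0 in wt crush minus wt naive, with adjusted p between 0.178 and 0.191.

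Some of the 10 genes varied between libraries more than others. Over all 28 libraries the coefficient of variation (SD over mean) was 24.8% for Chga, 21.5% for Vgf, 21.0% for Pcsk2 and 18.5% for Scg2. The median for genes within 2-fold of the same mean level was 8.79%, 8.75%, 8.90% and 8.86%. For Scg3 it was 9.51%, for Scg5 10.8%, for Pcsk1n 10.98%, for Chgb 12.8% and for Cpe 8.53%, beside medians of 9.23%, 9.50%, 9.24%, 9.27% and 12.0%. For Pcsk1 it was 29.7%, beside 19.7%. These values hold differences between groups as well as between libraries of a group.

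Within groups, the 10 genes did not vary as 1 block. After removal of group means, 45 pairs were compared over 28 libraries, with two-sided p from 100000 permutations within groups and Benjamini-Hochberg adjustment over the pairs. Of these, 13 passed for Pearson's r, 11 of them positive. Scg3 and Cpe had the highest value (r = 0.85, rho = 0.85, permutation p = 1e-05 for r, the smallest the permutations can give, and 2e-05 for rho, adjusted p = 0.000225 and 0.00045). Scg2 with Chgb (r = 0.81, rho = 0.80, permutation p = 1e-05 for each, adjusted p = 0.000225 and 0.00045) and Scg2 with Chga (r = 0.80, rho = 0.73, permutation p = 3e-05 and 0.0001, adjusted p = 0.00045 and 0.0015) followed. These 3 values were 0.85, 0.81 and 0.68 without the 2 libraries farthest from the median of the first gene.

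Scg5, the chaperone gene, correlated positively with its client gene Pcsk2 (r = 0.79, rho = 0.71, permutation p = 0.00022 and 0.0003, adjusted p = 0.00198 and 0.0024). It did so too with Chgb (r = 0.80, rho = 0.68, permutation p = 0.00013 and 0.00032, adjusted p = 0.00146 and 0.0024) and with Vgf (r = 0.74, rho = 0.62, permutation p = 0.00032 and 0.00109, adjusted p = 0.0024 and 0.00701). Without the 2 farthest libraries the 3 values of r were 0.65, 0.65 and 0.53, and without TG crush replicate 223 they were 0.65, 0.62 and 0.55. Vgf with Chgb (r = 0.61, rho = 0.52, permutation p = 0.00871 and 0.0135, adjusted p = 0.0327 and 0.0432) dropped to 0.37 without that library. Pcsk2 varied against Cpe (r = -0.58, rho = -0.58, permutation p = 0.00382 and 0.004, adjusted p = 0.0191 and 0.018). It also varied against Scg3 (r = -0.53, rho = -0.56, permutation p = 0.0111 and 0.00506, adjusted p = 0.0384 and 0.0207). Without the 2 farthest libraries these were -0.63 and -0.46. Pcsk1, the convertase gene, and Pcsk1n, the gene of its inhibitor, had an r of -0.44 (permutation p = 0.0304, adjusted p = 0.0855) and a rho of -0.47 (permutation p = 0.0165, adjusted p = 0.0464), so r did not pass and rho did. The same held for Pcsk2 with Pcsk1n (r = -0.34, rho = -0.46, permutation adjusted p = 0.0993 and 0.0432). It held also for Pcsk1 with Pcsk2 (r = 0.47, rho = 0.54, permutation adjusted p = 0.0717 and 0.021). The other 4 pairs that passed for r were Pcsk1 with Scg5 (r = 0.62), Chga with Pcsk1n (0.59), Vgf with Pcsk1 (0.58) and Chga with Chgb (0.55), with adjusted p of 0.00611, 0.00754, 0.0284 and 0.0313 by permutation. Without TG crush replicate 223, r was 0.55 for Pcsk1 with Scg5 and 0.48 for Vgf with Pcsk1. It was 0.62 for Chga with Pcsk1n and 0.55 for Chga with Chgb. The points of these correlations share each library's depth and tissue composition.

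The 10 genes were also compared with the levels of 10 marker lists, a family of 100 relations, of which 28 passed for r, 13 positive and 15 negative, and 21 passed for both r and rho. Pcsk2 followed the spiny neuron level (r = 0.88, rho = 0.76, permutation p = 1e-05 and 0.00013, adjusted p = 0.000333 and 0.00186) and ran against the astrocyte level (r = -0.84, rho = -0.85, permutation p = 1e-05 for each, adjusted p = 0.000333 and 0.0005). Without the 2 farthest libraries these were 0.83 and -0.77. Pcsk2 also ran against the microglial (r = -0.76) and oligodendrocyte (r = -0.68) levels. Scg5 followed the spiny neuron level as well (r = 0.68). It ran against the levels of astrocytes (-0.79), microglia (-0.77), endothelium (-0.75) and oligodendrocytes (-0.69). Pcsk1 ran against the microglial (-0.74) and endothelial (-0.69) levels. Each of these had a permutation adjusted p for r of 0.00694 or less. Without TG crush replicate 223, r with the oligodendrocyte level was -0.55 for Pcsk2 and -0.56 for Scg5. For Scg5 with the endothelial level it was -0.62. Scg5 with the oligodendrocyte level did not pass for rho (rho = -0.50, permutation adjusted p = 0.0632). Scg3 followed the astrocyte level (r = 0.64, rho = 0.65, permutation p = 0.0014 and 0.00148, adjusted p = 0.00824 and 0.0106), as did Cpe (r = 0.58, rho = 0.56, permutation p = 0.00393 and 0.00664, adjusted p = 0.0191 and 0.0349). Without the 2 farthest libraries these were 0.56 and 0.45. Chga followed the interneuron level (r = 0.84, rho = 0.86, permutation p = 1e-05 and 2e-05, adjusted p = 0.000333 and 0.000667, 0.81 without the 2 farthest libraries) and ran against the spiny neuron level (r = -0.59, rho = -0.70, permutation p = 0.00401 and 0.00034, adjusted p = 0.0191 and 0.00309, -0.68 without the 2 farthest libraries). Chga also followed the level of cortical excitatory neurons (r = 0.65, rho = 0.82, permutation p = 0.00106 and 3e-05, adjusted p = 0.00694 and 0.00075, 0.66 without the 2 farthest libraries). Scg2 followed the same 2 levels, interneurons (r = 0.66, rho = 0.69, permutation adjusted p = 0.00213 and 0.002) and cortical excitatory neurons (r = 0.52, rho = 0.62, permutation adjusted p = 0.0407 and 0.00585). Chgb ran against the endothelial level (r = -0.68, rho = -0.58, permutation adjusted p = 0.00694 and 0.0248), with an r of -0.52 without TG crush replicate 223. Of the 11 interneuron markers, Slc18a3 was at 0 in all libraries. The level gives each marker the same weight, from Vip (group medians of 0.383 to 1.17 RPM) to Sst (81.4 to 85.7 RPM). Th is also among the hypothalamus and midbrain markers. Vgf with the spiny neuron level had an r of 0.55 (permutation p = 0.00957, adjusted p = 0.0383) and a rho of 0.43 (permutation p = 0.0401, adjusted p = 0.117), and r was 0.40 without TG crush replicate 223.

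**Figure D3:**
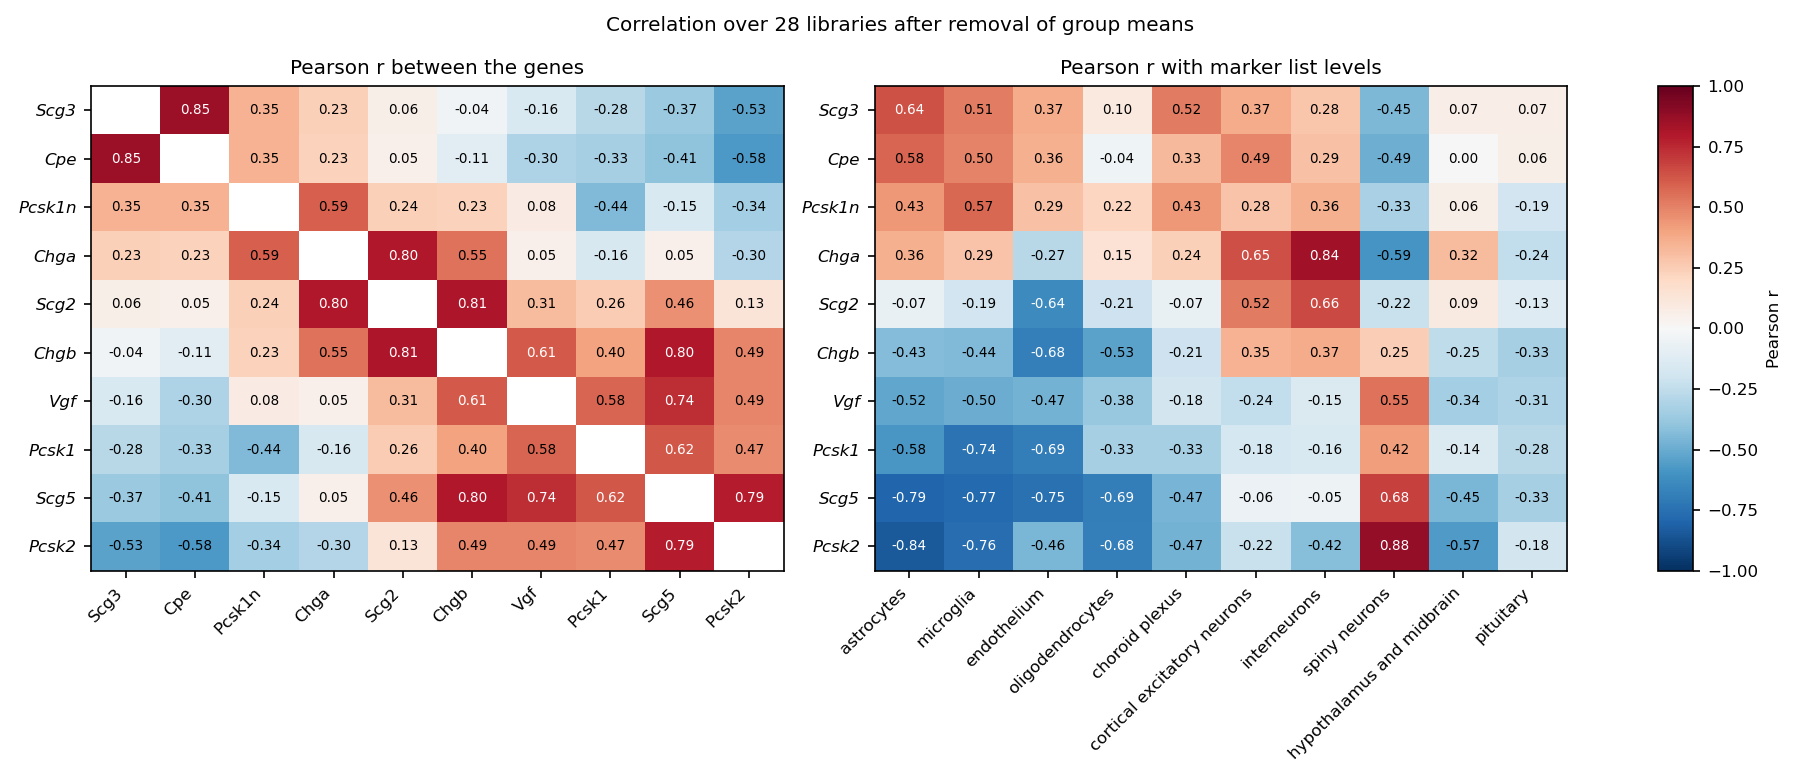
Pearson's r over 28 libraries after removal of group means, between the 10 genes (left) and of each gene with the mean log2 level of 10 marker lists (right), on a colour scale from -1 to 1. Scg3 and Cpe (0.85) form 1 corner and Pcsk2 and Scg5 (0.79) the opposite corner, and Pcsk2 has 0.88 with spiny neurons and -0.84 with astrocytes.

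The genes most like each member were taken as those of highest r over the 28 libraries among 12724 other genes with a mean of at least 5 RPM, as a description. For Pcsk2 these were the potassium channel subunit gene Kcnv1, Chst15 and Slc8a2 (r = 0.96 each). For Chga they were Timp2 (0.95), Tom1l2 (0.94) and Abcg4 (0.94), and for Chgb the small transcription elongation factor-like genes Tceal6 (0.95) and Tceal5 (0.94), with Sez6l2 (0.93). The astrocyte glutamate transporter gene Slc1a3 and the desaturase gene Fads2 were the 2 most like Cpe (0.90 each), and the same 2 led for Scg3, Fads2 with 0.88 and Slc1a3 with 0.84. Vgf was most like LOC100909521 (0.98), then Tmem132e (0.82) and the spermidine synthase gene Srm (0.81).

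Few other genes of the pathway passed the test. Of 15 other peptide processing enzymes, 0 were higher and 1 lower from TG naive to TG crush, where 3.08% of all genes were called: Ctsl, which encodes the protease cathepsin L, fell by 0.16 (SE 0.04, adjusted p = 0.0108). Averaged over genotypes 2 of 15 passed, against 11.4% of all genes: Ctsl fell by 0.11 (adjusted p = 0.0063), and Qpct, which encodes a glutaminyl cyclase that caps peptides, rose by 0.40 (SE 0.10, adjusted p = 0.0132). In wt rats 0 of the 15 passed by limma or limma-voom, and 2 had an unadjusted p under 0.05, against 20.8% of all genes. These were Qpct (0.32, adjusted p = 0.21) and Pam, the enzyme that amidates peptides (0.21, adjusted p = 0.213). The median log2 change of the list was 0.03 in TG and -0.04 in wt rats, beside -0.01 and -0.03 over all genes.

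Of 22 genes for forming and releasing dense core vesicles, 0 passed in either genotype by limma or limma-voom, with 1 in TG and 5 in wt rats at an unadjusted p under 0.05, against 19.3% and 20.8% of all genes. The lowest p were those of Rab2a (0.19, adjusted p = 0.0989) and Rab3d (-0.20, adjusted p = 0.262) in TG rats, and of Syt4 (0.42, adjusted p = 0.118) and Unc13b (-0.32, adjusted p = 0.15) in wt rats. Averaged over genotypes 2 of 22 rose, where 11.4% of all genes were called, the small GTPase gene Rab2a by 0.14 (SE 0.05, adjusted p = 0.039) and Syt4, a synaptotagmin of these vesicles, by 0.26 (SE 0.09, adjusted p = 0.0498). By limma-voom 1 gene of the list passed. The list's median was 0.09 in wt and 0.01 in TG rats, beside -0.03 and -0.01 over all genes.

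The cargo of these vesicles was measured through 25 neuropeptide precursor genes, of which 20 were above the minimum. None passed in either genotype or on average by limma or limma-voom, and 6 of 20 in wt rats, 0 in TG rats and 4 on average had an unadjusted p under 0.05, against 20.8%, 19.3% and 28.5% of all genes. In wt rats the lowest p were those of Cck (log2 change -0.55, adjusted p = 0.133) and Gal, the galanin gene (-1.17, adjusted p = 0.149). In TG rats they were those of Nts, the neurotensin gene (-0.54, adjusted p = 0.285), and Cartpt (-0.73, adjusted p = 0.379), and on average those of Cck (-0.33, adjusted p = 0.087) and Nts (-0.46, adjusted p = 0.115). The list's median was -0.25 in wt rats, beside -0.03 over all genes, and -0.06 in TG rats, beside -0.01. In wt rats 13 of 20 were negative. Penk, Tac1 and Pdyn of this list are among the 17 spiny neuron markers, of which 0 were negative in wt rats. Avp and Oxt are among the hypothalamus and midbrain markers, where 4 of 4 tested were negative in wt rats, with a median of -0.40. The part of tissue composition in the list's median was not tested.

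Vgf was also set beside 23 tested genes, of 24 listed, that are known to be regulated by neuronal activity. From TG naive to TG crush 1 of them was lower, the transcription factor gene Nfil3, which fell by 0.58 (SE 0.12, adjusted p = 0.0102), and 0 were higher. That is 1 of 23, where 3.08% of all genes were called. Averaged over genotypes 2 of 23 passed, where 11.4% of all genes did: Nfil3 fell by 0.42 (SE 0.09, adjusted p = 0.00347), and Dusp1, which encodes a phosphatase of MAP kinases, rose by 0.30 (SE 0.10, adjusted p = 0.0489). In wt rats 0 passed by limma or limma-voom and 8 had an unadjusted p under 0.05, against 20.8% of all genes, with Egr1 (0.52, adjusted p = 0.157) and Homer1 (0.37, adjusted p = 0.168) of lowest p. Their median log2 change was 0.21 in wt rats, beside -0.03 over all genes, and -0.10 in TG rats, beside -0.01. For the interaction 22 of 23 had a negative value, against 46.4% of all genes, with a median of -0.31 beside 0.01 over all genes. None passed there by limma or limma-voom and 3 had an unadjusted p under 0.05, against 7.49% of all genes. For the same interaction 17 of 17 spiny neuron markers had a negative value, with a median of -0.37, and their part in these values was not tested. Between the genotypes no gene of the 4 lists passed by limma or limma-voom in naive rats, in crush rats or on average, where 3, 10 and 2 of the 80 genes tested had an unadjusted p under 0.05. The shares of all genes were 4.98%, 8.06% and 5.09%.

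Reads of 3 of the 10 genes may be shared with near-identical copies in the annotation, either split between gene and copy or counted at both. Pcsk1n and LOC108348172 (chromosome X, 15425074 to 15429397, Rnor_6.0) differed by at most 4 reads in any of 28 libraries, at 6944 to 12181 reads for Pcsk1n, so they cannot be taken as separate signals. Pcsk1 and LOC100911216 held similar numbers of reads, with a ratio of copy to gene of 0.784 to 1.15. LOC100909521, which was set beside Vgf after values were seen, held 0.433 to 0.53 times the reads of Vgf in each library. It fell by 0.52 from TG naive to TG crush (SE 0.15, adjusted p = 0.0481). With each gene summed with its copy, Vgf fell by 0.56 in TG rats (adjusted p = 0.0237). A read counted at both entries would enter that sum more than once. Pcsk2 overlaps the pseudogene LOC100361436 on the opposite strand, which held on average 361 reads, 6.3% of the mean for Pcsk2, and whether the counting used strand is not stated in the sources used here.

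**Figure D4:**
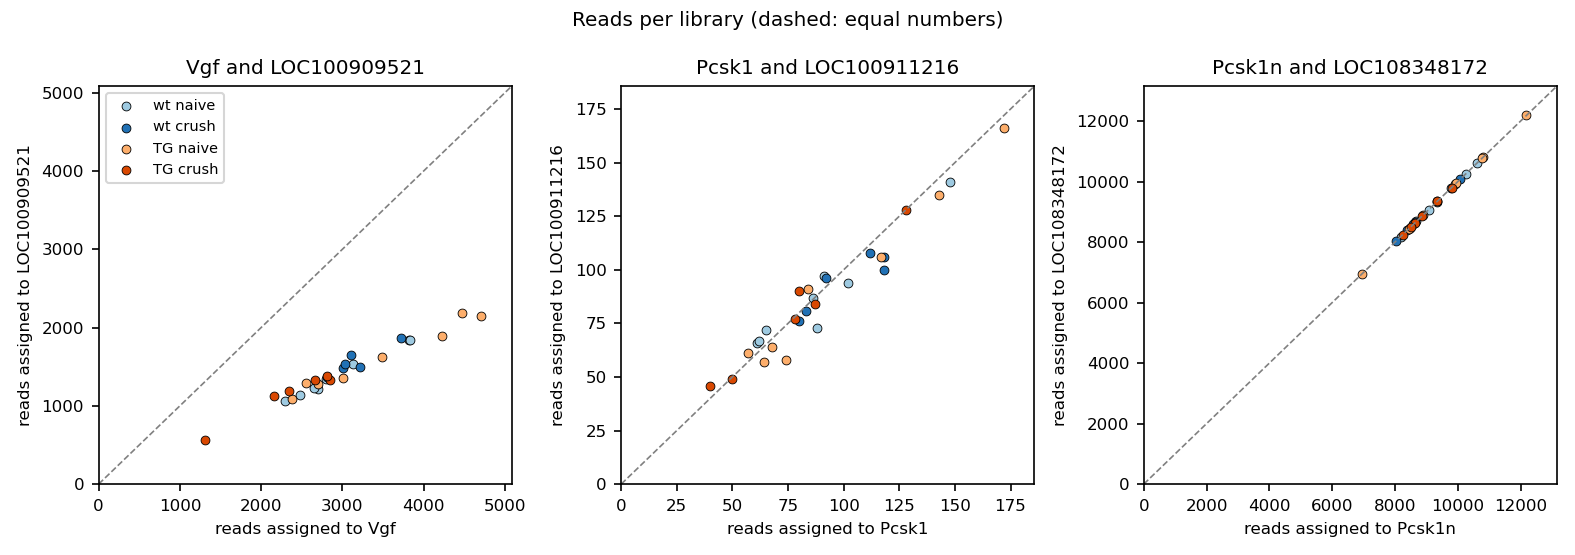
Reads per library of Vgf, Pcsk1 and Pcsk1n (horizontal axes) against those of their near-identical copies (vertical axes), with each point a library coloured by group and a dashed line at equal numbers. The Pcsk1n points lie on the line within 4 reads, the Pcsk1 points scatter about it between ratios of 0.784 and 1.15, and the Vgf points follow a lower line between 0.433 and 0.53.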

How the data were processed

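The 28 libraries were made with a stranded mRNA kit and read single-end over 75 nt, per the labels' protocols, in 2 runs whose membership the sources used here do not give. STAR 2.6.1a, featureCounts of Subread 1.6.3, DESeq2 1.22.2 and the build Rnor_6.0 are named in the submitters' processing notes. The deposited table holds RPKM values with decimal commas, whose length is the gene span for all 39538 genes; its unit was recorded as other, meaning another value than the unit check reads. RPKM times span in kilobases gave RPM, and 100% of values were whole reads within 0.02 of a step. A count of 0 allows at most 0.103 RPM (3 reads), for counting error only.

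In R 4.3.3, limma 3.58.1 was fitted once to log2(RPM + 0.5) on the 4 groups, with variances that follow the mean, for 18222 genes with at least 0.5 RPM in at least 6 libraries, with Benjamini-Hochberg adjustment over all of them. It was tested on simulated data. Groups come from the labels' titles. The members and gene lists were chosen with earlier results of these data known. All 10 members are named, and of each pathway list the genes called, up to 6, or the 2 of lowest p where none was; for the genotype contrasts and the interaction these are not printed. All 187 list entries were matched, and 2 of them (Eipr1 and Slco1a4) under other symbols in the table. Correlations used scipy 1.17.1 and figures matplotlib 3.10.9 in Python 3.11.15. Alternatives were other pseudocounts, filters and scalings, RPKM, the compared groups alone, array weights, limma-voom, the spiny neuron level as a covariate, and leaving out libraries. Summing copies and correlations without TG crush replicate 223 were chosen after seeing the data.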

Additional observations from a re-analysis of the deposited data

Results flagged for a closer look

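In the wt crush group, replicate 205 stood above the other 5 libraries for Vgf, at 106 RPM, where the gap to the next library was 0.640 of the group's range and the limit for 6 samples is 0.625. In the wt naive group, replicate 199 stood above the other 7 for Scg2, at 214 RPM, with a gap of 0.607 of the range and a limit of 0.526 for 8 samples. The same library had the highest level of all 28 for 3 of the 10 genes. Of 40 groups of values examined these were 2, and chance marks about 1 in 20 groups.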

How the results depend on the processing

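The count of genes called among the 10 was the same as reported under most of 12 alternatives. From TG naive to TG crush it went from 1 to 0 with the compared groups fitted alone, where the wt libraries do not enter the estimate of spread. It stayed at 1 with each of the 28 libraries left out. From wt naive to wt crush it went from 0 to 1 with array weights (Scg5, 0.20, adjusted p = 0.0338) and was 0 with each library left out. For the crush difference averaged over genotypes it went from 0 to 1 with the RPKM scale (Pcsk1n, adjusted p = 0.0448), 1 with the stricter filter (Pcsk1n, adjusted p = 0.0432), 1 with spiny neuron level in the model (Vgf, -0.35, adjusted p = 0.0132) and 4 with array weights (Vgf, Scg5, Pcsk1n and Cpe). With a library left out it ranged from 0 to 3, with 3 without TG crush replicate 223 (Pcsk2, Scg5 and Pcsk1n) and 2 without TG crush replicate 226. The cause was not tested. In the 3 genotype contrasts and the interaction the count was 0 under every alternative run. No called change reversed, and 95 of 2756 changes recomputed had the other sign, none of them called (lowest adjusted p = 0.545). Over all genes, calls from TG naive to TG crush ranged from 123 (compared groups alone) to 1753 (array weights), and from 224 (without TG crush replicate 220) to 1218 (without TG crush replicate 223). From wt naive to wt crush they ranged from 8 (covariate) to 1436 (array weights), and from 12 (without wt naive replicate 197) to 511 (without wt naive replicate 196). No paired analysis was possible because the groups share no replicate number. edgeR on the whole reads and the search for pairs of basic residues in the proteins were not run. Pcsk1 rested on the lowest depth, 40 to 172 reads per library.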
